A study of Mus musculus with 4 samples.

Results

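Smoc2, Smoc1, Sparc, Sparcl1, Fstl1, Spock1, Spock2 and Spock3 encode secreted matricellular proteins, and their transcripts were examined in a tumorigenic and a nontumorigenic subline of mouse neural stem cells. These 8 genes are represented by 15 of the 34945 probe sets that carry a single gene name, out of 18193 named genes in all. The family was chosen for the large Smoc2 difference between the sublines, so the Smoc2 values are given as a description with no test. The other 7 members were taken by family, for their relation to Smoc2 and to SPARC, with earlier results of these data known.

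The tumorigenic cells are named GIC, for their likeness to glioma-initiating cells, and the nontumorigenic ones non-GIC. Each subline was measured on 2 oligonucleotide arrays. Both were derived from neuroepithelial cells of the telencephalon at embryonic day 14.5, from p53-/- mice of the C57BL/6 strain. Both carry the plasmids pCMS-EGFP-HRasL61, which expresses GFP and an activated HRas, and pBabe-neo, introduced by electroporation, and both were selected with 0.5 mg/ml neomycin and sorted for GFP. The neuroepithelial cells had been expanded as floating spheres in serum-free medium with bFGF, PDGF and forskolin. The sublines share the p53 deletion and the oncogene, and no untransformed neural stem cells were analysed here. The labels do not say how many clones each subline holds or whether its arrays came from separate cultures, so a p-value here reflects the spread of these arrays alone, and that spread may be technical. Any other difference between the sublines cannot be told apart from tumorigenicity.

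SPARC, also called osteonectin, is the founding member of the family. Its proteins combine a follistatin-like domain with a calcium-binding extracellular domain, and they modulate how cells attach to matrix and respond to growth factors rather than building fibres. SMOC proteins add thyroglobulin-type domains and are known as extracellular antagonists of BMP signalling. Hevin, the product of Sparcl1, is secreted by astrocytes and promotes synapse formation. The testicans, encoded by the Spock genes, are proteoglycans of the brain, and FSTL1 is a secreted glycoprotein that binds BMP4.

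Promoter sequences from RefSeq (assembly GRCm38.p6) matched 5 of the 8 members: Sparc, Fstl1, Spock1, Spock2 and Spock3. Smoc2, Smoc1 and Sparcl1 had no entry. The 250 bases before the annotated start of Fstl1 (chr16:37776805-37777054, plus strand) and Sparc (chr11:55420081-55420330, minus strand) are shown because these were the members with high signal in both sublines. Capitals mark the GC box GGGCGG and the GGA repeat GGAGGA, which do not overlap each other here, and matches on both strands were searched.
Fstl1: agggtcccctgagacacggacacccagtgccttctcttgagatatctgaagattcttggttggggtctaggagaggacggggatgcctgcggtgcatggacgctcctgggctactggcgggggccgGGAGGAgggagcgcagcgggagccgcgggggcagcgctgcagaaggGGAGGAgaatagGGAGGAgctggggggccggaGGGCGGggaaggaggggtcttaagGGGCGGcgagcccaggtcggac
Sparc: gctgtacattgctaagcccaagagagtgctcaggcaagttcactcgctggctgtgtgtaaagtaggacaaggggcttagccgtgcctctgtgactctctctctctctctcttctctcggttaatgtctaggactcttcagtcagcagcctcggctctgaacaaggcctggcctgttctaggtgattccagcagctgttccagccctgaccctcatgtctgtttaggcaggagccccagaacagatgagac
The Fstl1 window holds 2 GC boxes, 3 GGA repeats and 16 CG dinucleotides. The Sparc window holds neither motif and has 4 CG dinucleotides, against a median of 6 over all 32851 windows. The GC box is found in 32.7% of these windows, the GGA repeat in 29.2%, the TATA box TATAAA in 12.4% and the AP-1 motif TGANTCA in 6.75%. Neither printed window holds the TATA box or the AP-1 motif. The table gives a single start for Sparc, a gene with several annotated transcripts.

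Values are log2 signals as deposited. The medians of the arrays ran from 6.58 to 6.63, and the highest value was 15.12. Testing required a signal over 5.97, the 40th percentile of the table, on 2 or more arrays, and 13366 genes met this. Of 11 neural stem and progenitor markers, 9 lay above this level on every array, among them Sox2, at 10.20 and 10.59 in GIC and 11.15 and 11.44 in non-GIC. Prom1, which encodes the stem cell surface protein prominin, lay below the level on all 4 arrays. Fabp7 passed it in non-GIC alone, at 5.23 on both GIC arrays and 6.58 and 6.89 in non-GIC. Nes had 9.17 and 8.97 in GIC and 11.45 and 10.81 in non-GIC. The level does not set stem cells apart, as 5 of 7 astrocyte markers and 4 of 6 neuron markers also lay above it on every array. Of 6 endothelial markers, 3 (Pecam1, Cdh5 and Tek) were below the level on every array, and 3 (Kdr, Cldn5 and Flt1) were above it on every array.

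The Smoc2 transcript had a log2 signal of 12.44 and 11.49 on the GIC arrays, against 7.20 and 5.94 on the non-GIC arrays. Both GIC arrays lay far above both non-GIC arrays, and the smallest gap between a GIC and a non-GIC array was 4.29 on the log2 scale, or 19.6-fold. GIC averaged 11.96 ± 0.68, against 6.57 ± 0.89 for non-GIC (SD, n = 2 each), a log2 difference of 5.40 or 42.2-fold. The second Smoc2 probe set had 11.82 and 10.74 in GIC and 6.37 and 5.58 in non-GIC, a log2 difference of 5.31 or 39.6-fold. Both probe sets thus showed the same order and nearly the same size of difference. Among the 13366 tested genes, 4 had a larger increase than Smoc2.

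**Figure D1:**
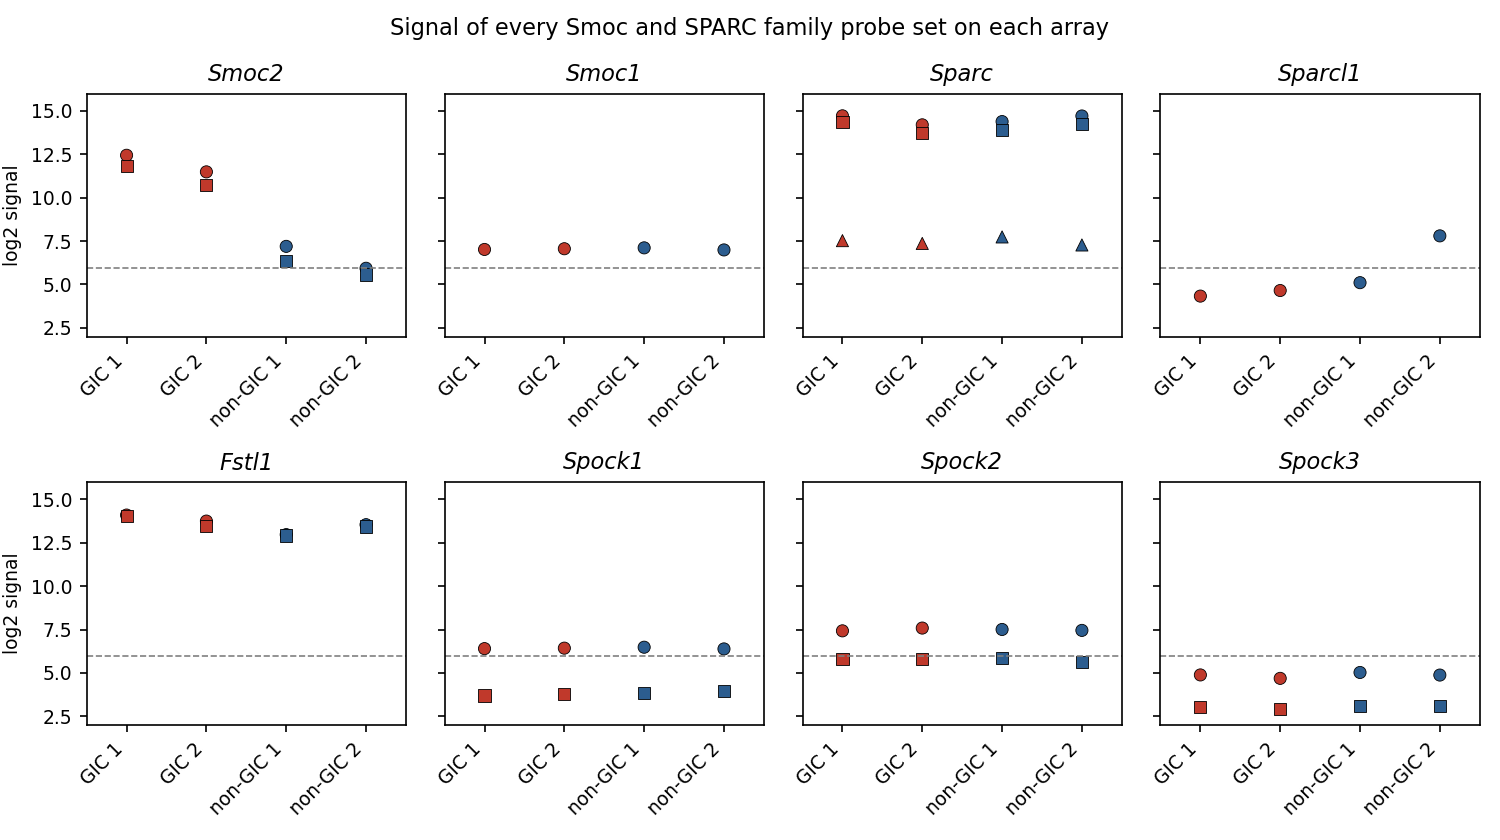
Log2 signal (y axis) of all 15 family probe sets on the 2 GIC arrays (red) and the 2 non-GIC arrays (blue), with a panel for each gene and a marker shape for each probe set. The dashed line is the level filter of 5.97. Smoc2 separates the sublines, Sparcl1 is high on non-GIC replicate 2, and Fstl1 lies higher on both GIC arrays, with values from 12.97 to 14.10 on its main probe set. The main probe sets of Smoc1, Sparc, Spock1 and Spock2 overlap between the sublines, and Spock3 lies below the filter.

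Smoc2 also varied within each subline. It was higher on GIC replicate 1 than on GIC replicate 2 by 0.96 on the log2 scale, a gap that 3.77% of tested genes reached. The gap between the non-GIC arrays was 1.26, which 1.78% of tested genes reached. The median gap over tested genes was 0.20 between the GIC arrays and 0.18 between the non-GIC arrays. Leaving out GIC replicate 1 gave a 30.3-fold difference, and leaving out GIC replicate 2 gave 58.8-fold. Leaving out non-GIC replicate 1 gave 65.3-fold, and leaving out non-GIC replicate 2 gave 27.3-fold. The non-GIC signal lay close to the filter level, and 1 of the arrays was below it, so the fold difference can be understated.

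Smoc1, the closest relative of Smoc2, showed no such difference. Its signal was 7.02 and 7.06 in GIC and 7.11 and 6.99 in non-GIC, so the groups overlapped within a narrow band. The log2 difference was -0.01 (SE 0.12, 95% interval -0.33 to 0.31, limma adjusted p = 0.970). The interval covers 0.796-fold to 1.24-fold for this probe set and rests on the spread of these arrays alone. The signal ranked between percentiles 55.1 and 56.9 of all probe sets, and whether it follows the transcript was not tested. Smoc1 has 1 probe set on the array.

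Sparc gave some of the strongest signals on the arrays. Its main probe set had 14.71 and 14.20 in GIC and 14.38 and 14.70 in non-GIC, which placed it between percentiles 99.7 and 99.96 of all probe sets on each array. The groups overlapped, with a log2 difference of -0.09 (SE 0.22, 95% interval -0.66 to 0.48, limma adjusted p = 0.870). The interval covers 0.633-fold to 1.39-fold. The second probe set had 14.37 and 13.75 in GIC and 13.89 and 14.25 in non-GIC, and again the highest and lowest arrays were both GIC. The third read far lower, at 7.53 and 7.37 in GIC and 7.74 and 7.28 in non-GIC, and also overlapped.

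Fstl1 was likewise strong on all arrays. It had 14.10 and 13.75 in GIC and 12.97 and 13.54 in non-GIC on its main probe set, and 14.03 and 13.47 in GIC and 12.92 and 13.44 in non-GIC on the second. Both GIC arrays lay above both non-GIC arrays on each probe set, but on the second by 0.04 at the closest pair. The main probe set had a log2 difference of 0.67 (SE 0.24, 95% interval 0.03 to 1.30), or 1.59-fold. This did not pass after adjustment over all genes (limma unadjusted p = 0.0427, adjusted p = 0.264). With any single array left out the log2 difference lay between 0.38 and 0.95, and over all alternatives the adjusted p lay between 0.0541 and 0.704.

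Sparcl1 was low on 3 of the 4 arrays. It had 4.33 and 4.65 in GIC, against 5.11 and 7.80 in non-GIC, so the groups did not overlap, but non-GIC replicate 2 stood 2.70 above non-GIC replicate 1. Only that array exceeded the filter level, so Sparcl1 was not tested. GIC averaged 4.49 ± 0.23, against 6.45 ± 1.91 for non-GIC (SD, n = 2 each), a log2 difference of -1.96. It was -0.61 when non-GIC replicate 2 was left out and -3.31 when non-GIC replicate 1 was. With no level filter the adjusted p was 0.387 (limma). Astrocytes and endothelial cells both express Sparcl1 in the brain. Of 7 astrocyte markers 3 were highest on non-GIC replicate 2, among them the glutamate transporter Slc1a3, at 10.09 and 9.72 in GIC and 8.78 and 11.0026 in non-GIC. The mean signal of the astrocyte markers was 7.65 and 7.59 in GIC and 7.66 and 7.83 in non-GIC, and Gfap lay between 6.47 and 6.70 on all arrays. Of the remaining 6 markers, 4 were lower on non-GIC replicate 2 than on non-GIC replicate 1, whereas Gfap and Gja1 were slightly higher there. Without Slc1a3 the list mean was 7.25 and 7.24 in GIC and 7.47 and 7.30 in non-GIC. Of 6 endothelial markers 2 were highest on non-GIC replicate 2, with list means of 6.41 and 6.31 in GIC and 6.23 and 6.17 in non-GIC. Both sublines had been selected with neomycin and sorted for GFP, and whether other cells remained was not tested. The part of these cell types in the Sparcl1 value was not tested, and in bulk RNA fewer cells of a type and less RNA per cell cannot be told apart.

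The testican probe sets read nearly the same in both sublines, at low to middling signal. None ranked above percentile 61.6 of all probe sets on any array, and whether these signals reflect detected transcripts was not tested. Spock1 had 6.40 and 6.43 in GIC and 6.48 and 6.39 in non-GIC, with a log2 difference of -0.02 (SE 0.11, 95% interval -0.29 to 0.26, limma adjusted p = 0.946). Spock2 had 7.43 and 7.59 in GIC and 7.51 and 7.45 in non-GIC, a log2 difference of 0.03 (SE 0.14, 95% interval -0.33 to 0.38, limma adjusted p = 0.935). The sign of the Spock2 value turned with quantile normalization or median centring. Spock3 was not tested, because both of its probe sets lay below the filter on every array, at 4.89 and 4.69 in GIC and 5.03 and 4.88 in non-GIC on the higher one. Over the 7 probe sets of Smoc1 and the Spock genes, the range across all 4 arrays was between 0.10 and 0.34. The second Spock1 probe set had 3.70 and 3.79 in GIC and 3.85 and 3.94 in non-GIC, and the second Spock2 probe set had 5.82 and 5.79 in GIC and 5.87 and 5.62 in non-GIC, all below the filter.

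Smoc2 chose the family and is left out of the count of calls. Of the other 5 members that passed the level filter, 0 passed the threshold of 0.05 (limma adjusted p), against 1.92% of all tested genes. At an unadjusted p under 0.05 there was 1, Fstl1. Among all 15 probe sets the groups did not overlap for 4 that were higher in GIC and 3 that were lower. The 4 were both of Smoc2, which chose the family, and both of Fstl1. The 3 were that of Sparcl1 and the lower probe sets of Spock1 and Spock3, none of which passed the level filter. Of the 5 tested members other than Smoc2, the groups did not overlap for Fstl1 alone. Over all tested genes, read at 1 probe set each past the filter, the groups did not overlap in 50.4%, with 25.5% higher and 24.9% lower. A log2 difference of at least 1 was found for 3 of the probe sets, namely both of Smoc2 and that of Sparcl1.

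**Figure D2:**
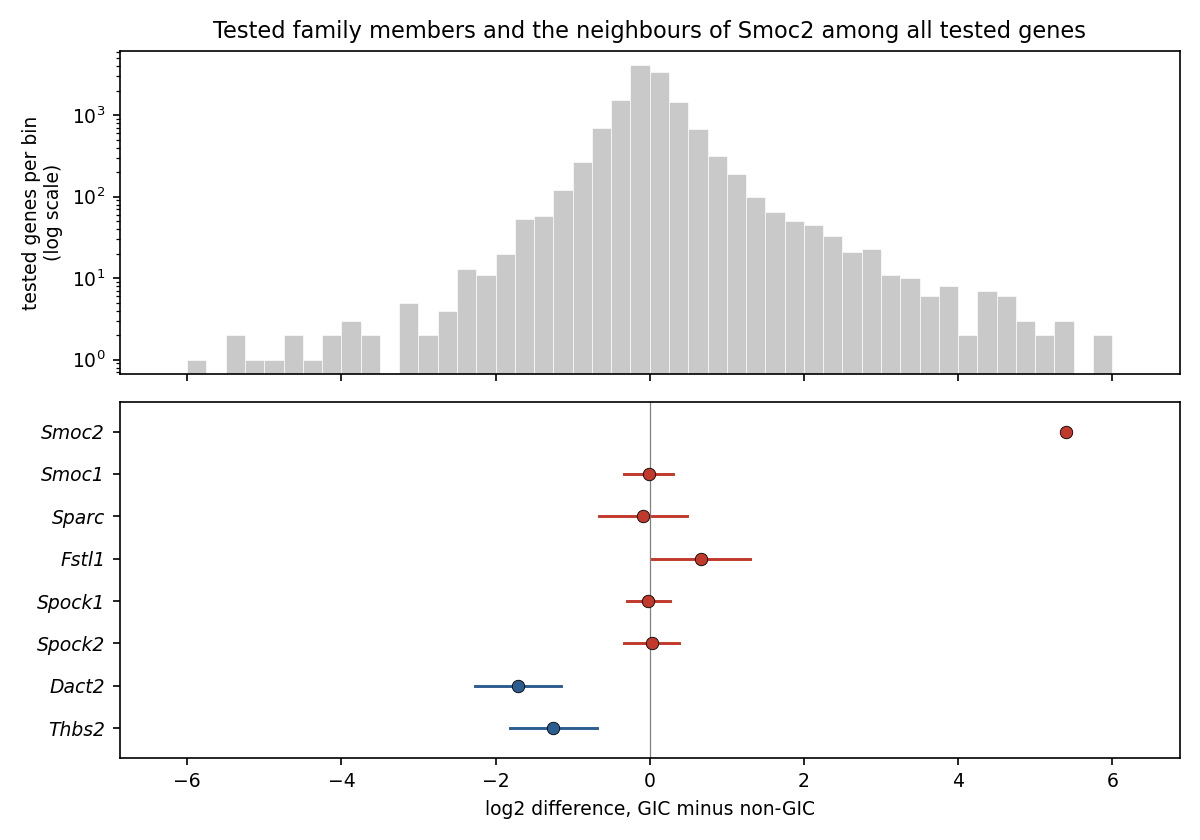
The upper panel counts tested genes by log2 difference, GIC minus non-GIC (x axis, bins of 0.25; y axis on a log scale), and the lower panel shows the 6 family members above the level filter (red) and the genes on either side of Smoc2 (blue). Bars are 95% intervals from limma, and Smoc2 has none because it was chosen for its difference. Smoc2 lies at 5.40, whereas Smoc1, Sparc, Spock1 and Spock2 lie within 0.1 of 0.

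Smoc2 differed in direction from the tested probe sets of the genes beside it on its chromosome. In the gene order of assembly GRCm38.p6 the nearest tested genes are Dact2 on one side and Thbs2 on the other. The genes between them and Smoc2 are 5 and 3 noncoding RNAs without a probe set. Dact2, an adaptor of Dishevelled that modulates Wnt and TGF-beta signalling, had 7.35 and 7.79 in GIC and 9.37 and 9.17 in non-GIC. It fell by 1.70 on the log2 scale (SE 0.21, limma adjusted p = 0.0428), against 0.688% of tested genes called lower. Its other probe sets had log2 differences of -0.77 and 0.05, and with the mean of the probe sets the value was -0.81 and did not pass (adjusted p = 0.0692). The Dact2 call was also lost when any single array was left out, with values from -1.93 to -1.48. Over all alternatives its adjusted p lay between 0.0175 and 0.200. Thbs2, which encodes the matricellular protein thrombospondin 2, had 9.93 and 9.62 in GIC and 10.85 and 11.20 in non-GIC. Its log2 difference was -1.25 (SE 0.22) and did not pass (limma adjusted p = 0.0789), with its other probe sets at -1.08 and -0.81. On the tested probe set of each neighbour both GIC arrays lay below both non-GIC arrays, as they did for 24.9% of all tested genes. The Dact2 probe set at 0.05 had the opposite order, with 7.249 and 7.337 in GIC and 7.242 and 7.245 in non-GIC. The remaining probe sets of both neighbours were lower on both GIC arrays.

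The genes next to the other members showed small differences. The 14 nearest tested genes had log2 differences from -0.14 to 0.54, and none passed (lowest limma adjusted p = 0.310). Beside Sparc they were Fat2 (-0.13) and Atox1 (-0.02), and beside Fstl1 they were Hgd (0.08) and Lrrc58 (-0.06). Srsf5 (0.04) and Slc8a3 (0.24) lie beside Smoc1, and Nudt9 (0.54) and Mepe (-0.07) beside Sparcl1. The values were -0.13 for Trpc7 and -0.14 for Hnrnpa0 beside Spock1, 0.15 for Ascc1 and 0.07 for Chst3 beside Spock2, and -0.0012 for Palld and 0.35 for Tll1 beside Spock3. The sign of Atox1 and Palld turned with quantile normalization.

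Among all tested genes, those with the profile nearest to that of Smoc2 over the 4 arrays were Sema3d, Rgs2, Klhl13, Ifitm1 and Wfdc2. Likeness was the Euclidean distance after each gene was centred on its own mean, and it was between 1.02 for Sema3d and 1.28 for Wfdc2. Sema3d had 9.43 and 7.79 in GIC and 3.82 and 3.60 in non-GIC, and Rgs2 had 10.20 and 8.73 in GIC and 4.67 and 4.56 in non-GIC. Like Smoc2, both were higher on GIC replicate 1 than on GIC replicate 2. Klhl13, which encodes an adaptor for cullin-type ubiquitin ligases, had 9.50 and 9.08 in GIC and 3.32 and 3.28 in non-GIC. The interferon-induced Ifitm1 had 12.33 and 11.52 in GIC and 5.87 and 6.24 in non-GIC, and Wfdc2 had 11.10 and 11.59 in GIC and 6.10 and 5.91 in non-GIC. These genes were picked by their likeness to Smoc2, so they carry no test here. The non-GIC signal of Sema3d, Rgs2 and Klhl13 lay below the filter on both arrays. Their values also depended on the probe set. The log2 difference of Klhl13 was 5.99, against 2.24 when probe sets shared by several transcripts were left out. With the mean of the probe sets that of Sema3d was 3.43, against 4.90, and that of Rgs2 was 2.85, against 4.85.

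**Figure D3:**
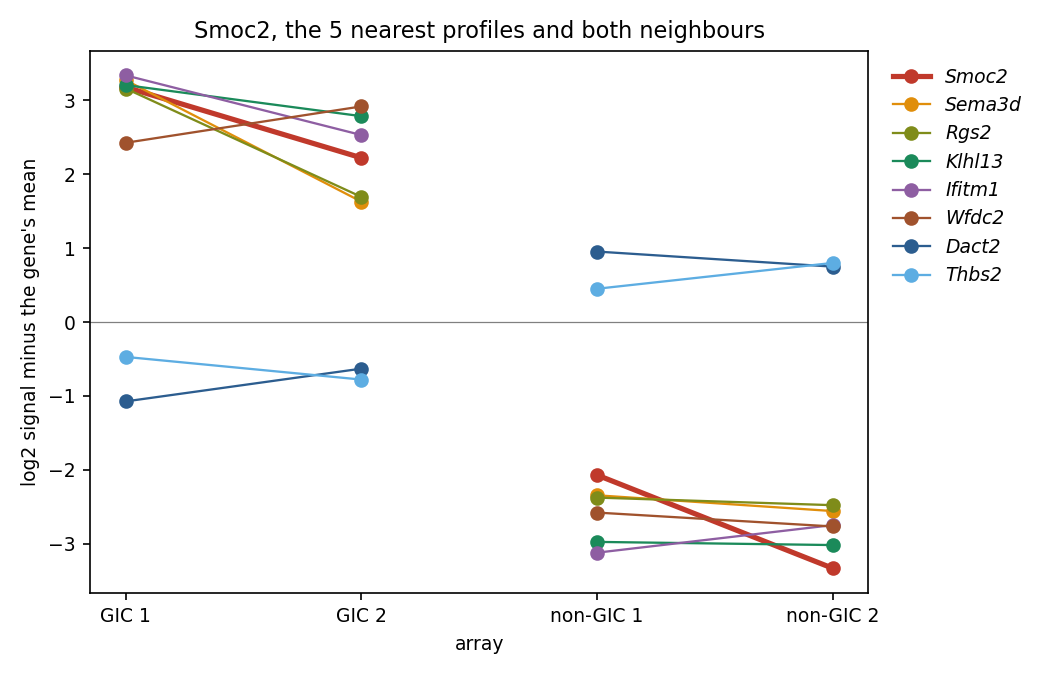
Log2 signal minus each gene's mean over the 4 arrays (y axis) on each array (x axis) for Smoc2, the 5 genes with the nearest profile, and Dact2 and Thbs2, which flank Smoc2. Lines join the arrays of a subline for each gene. The neighbours lie below 0 on both GIC arrays, where Smoc2 and the genes like it lie above.

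Genes linked to the family, some by action and others by a shared domain or class, were described from 10 lists. The lists were chosen with earlier results of these data known. They hold 132 genes, of which 127 had a probe set and 116 were tested. Of these, 7 rose and 1 fell, against 1.23% of all tested genes called higher and 0.688% called lower. Calls in either direction made up 1.92% of all tested genes, the share to set beside the count of each list below. No list was tested as a set. The 116 genes had a median log2 difference of 0.13, against -0.01 over all tested genes. Among the 7 that rose, Bmp2 and Mmp13 entered the test through their GIC signal alone. Without non-GIC replicate 1 none of the 8 remained called, and without non-GIC replicate 2 only Igfbp7 did. Without GIC replicate 1 the calls that remained were Bmp2, Igfbp7 and Mmp13, and without GIC replicate 2 those of Cd14, Ccn5 and Tnn were lost.

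SMOC and FSTL1 proteins act on BMP signalling. Of 25 tested genes of the BMP pathway and its extracellular antagonists, the ligand gene Bmp2 rose and the other 24 did not pass. Bmp2 had 7.51 and 8.00 in GIC and 4.71 and 4.95 in non-GIC, a log2 difference of 2.92 (SE 0.20, limma adjusted p = 0.0137), or 7.58-fold. Both non-GIC arrays lay below the filter, so Bmp2 entered the test through its GIC signal alone, and its fold can be understated. Bmp6 had the next smallest p, with 6.26 and 6.58 in GIC and 5.49 and 5.10 in non-GIC (log2 difference 1.12, limma adjusted p = 0.0747). It too entered the test through its GIC signal alone. The median of this list was 0.16.

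Of 5 tested genes for proteins that bind FSTL1 or share its receptors, Cd14 rose and 4 did not pass. Cd14, a co-receptor for lipopolysaccharide, had 8.76 and 8.96 in GIC and 7.52 and 7.60 in non-GIC, a log2 difference of 1.30 (SE 0.15, limma adjusted p = 0.0370). Dip2a, which encodes an FSTL1 receptor, had a log2 difference of 0.35 (limma adjusted p = 0.342). Cd14 is also made by microglia and other leukocytes. Their 6 markers had a mean signal of 5.40 and 5.44 in GIC and 5.55 and 5.30 in non-GIC, and 4 of them lay below the filter on every array. The sublines had been selected with the drug and sorted for GFP, and the part of such cells in the Cd14 value was not tested.

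SPARC binds fibrillar and basement membrane collagens, and none of the 8 tested collagen genes passed, against 1.92% of all tested genes. Col1a1, the main fibrillar collagen gene, had 13.59 and 10.70 in GIC and 13.84 and 14.57 in non-GIC, so GIC replicate 2 stood apart. Its log2 difference was -2.06 (SE 0.98, limma adjusted p = 0.364). Col1a2 went the other way, at 11.545 and 11.72 in GIC and 11.46 and 9.28 in non-GIC (log2 difference 1.26, limma adjusted p = 0.447). In this list the groups did not overlap for 2 genes higher in GIC and 2 lower, against 25.5% and 24.9% of all tested genes. Col2a1, which encodes cartilage collagen, had a log2 difference of 0.80 (limma adjusted p = 0.124). None of 8 tested genes for SPARC receptors and uptake passed either, against the same 1.92%. The fibronectin receptor subunit Itga5 had 9.53 and 9.09 in GIC and 10.81 and 10.73 in non-GIC, a log2 difference of -1.46 (limma adjusted p = 0.0553). It passed with the mean of its probe sets (adjusted p = 0.0465) and when probe sets shared by several transcripts were left out (adjusted p = 0.0489). Its range over all alternatives was 0.0336 to 0.274. The adhesion molecule Vcam1 had a log2 difference of -1.39 (limma adjusted p = 0.0559). Markers of fibroblasts and mural cells, which also make collagen and SPARC, had a mean signal of 9.93 and 8.90 in GIC and 9.60 and 9.93 in non-GIC over 6 genes, of which Col1a1 is one. Without Col1a1 the mean was 9.20 and 8.54 in GIC and 8.75 and 9.00 in non-GIC. The sublines had been selected with the drug and sorted for GFP, and the part of such cells in these values was not tested.

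Of 11 tested genes for proteases that cleave SPARC family proteins, Mmp13 rose and 10 did not pass. Mmp13, a collagenase, had 9.11 and 7.36 in GIC and 3.72 and 3.94 in non-GIC, a log2 difference of 4.40 (SE 0.58, limma adjusted p = 0.0471). Both non-GIC arrays lay below the filter, so Mmp13 entered the test through its GIC signal alone, and its folds are set against a signal under the filter and can be understated. The fitted increase was 21.2-fold with all arrays. It became 11.5-fold when GIC replicate 1 was left out and 38.8-fold when GIC replicate 2 was. It did not pass with no level filter (adjusted p = 0.0504) or without a variance trend (adjusted p = 0.0608), and its adjusted p over all alternatives lay between 0.0149 and 0.213. The stromelysin gene Mmp3 had 9.49 and 9.54 in GIC and 6.23 and 8.00 in non-GIC (log2 difference 2.40, limma adjusted p = 0.146), and passed without non-GIC replicate 2 (adjusted p = 0.0459, the lowest of a range up to 0.337 over all alternatives). None of the 4 tested genes for membrane metalloproteinases linked to testicans and their inhibitor passed, against 1.92% of all tested genes. Timp2 was at 0.36 and Mmp24 at 0.13 on the log2 scale.

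Testicans carry glycosaminoglycan chains. None of 22 tested genes for the synthesis of the linker and the chains passed, against 1.92% of all tested genes. Their median log2 difference was -0.05. The sulfotransferase genes Chst15 and Chst12 had log2 differences of 1.003 and 0.99 (limma adjusted p = 0.130 and 0.148). Of 11 tested genes for core proteins with heparan sulfate chains, the syndecan gene Sdc4 rose and 10 did not pass. Sdc4 had 12.34 and 12.06 in GIC and 10.20 and 10.47 in non-GIC, a log2 difference of 1.86 (SE 0.19, limma adjusted p = 0.0319). Its other probe set gave -0.12, so the Sdc4 probe sets disagree. The glypican gene Gpc1 had a log2 difference of -0.64 (limma adjusted p = 0.261).

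Of 10 tested genes for other proteins with a follistatin-like domain, Igfbp7 fell and 9 did not pass. Igfbp7, which encodes a secreted binding protein for growth factors, had 9.04 and 8.87 in GIC and 12.88 and 13.35 in non-GIC. It fell by 4.16 on the log2 scale (SE 0.22, limma adjusted p = 0.00842), and its other probe sets had -3.06 and -0.12. Tmeff2, which encodes a transmembrane protein with follistatin-like domains, had 8.34 and 9.10 in GIC and 10.95 and 12.12 in non-GIC (log2 difference -2.81, limma adjusted p = 0.0778).

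The other matricellular proteins had a median log2 difference of 1.65 over 16 tested genes. Of these, Ccn2, Tnn and Ccn5 rose, and 13 did not pass. Ccn2, a growth factor-binding matrix protein, had 12.59 on both GIC arrays and 10.37 and 10.66 in non-GIC, a log2 difference of 2.07 (SE 0.17, limma adjusted p = 0.0194). Tnn, which encodes tenascin-W, had 8.51 and 8.20 in GIC and 6.86 and 6.63 in non-GIC, a log2 difference of 1.61 (SE 0.18, limma adjusted p = 0.0343). Ccn5 had 12.19 and 11.45 in GIC and 6.57 and 7.89 in non-GIC, a log2 difference of 4.60 (SE 0.52, limma adjusted p = 0.0346). Its increase was 24.2-fold with all arrays. It became 15.3-fold when non-GIC replicate 1 was left out and 38.2-fold when non-GIC replicate 2 was. The groups did not overlap for 15 of the 16 genes, of which 13 were higher in GIC and 2, Thbs2 and Ccn4, were lower. Over all tested genes that share was 50.4%, with 25.5% higher and 24.9% lower.

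**Figure D4:**
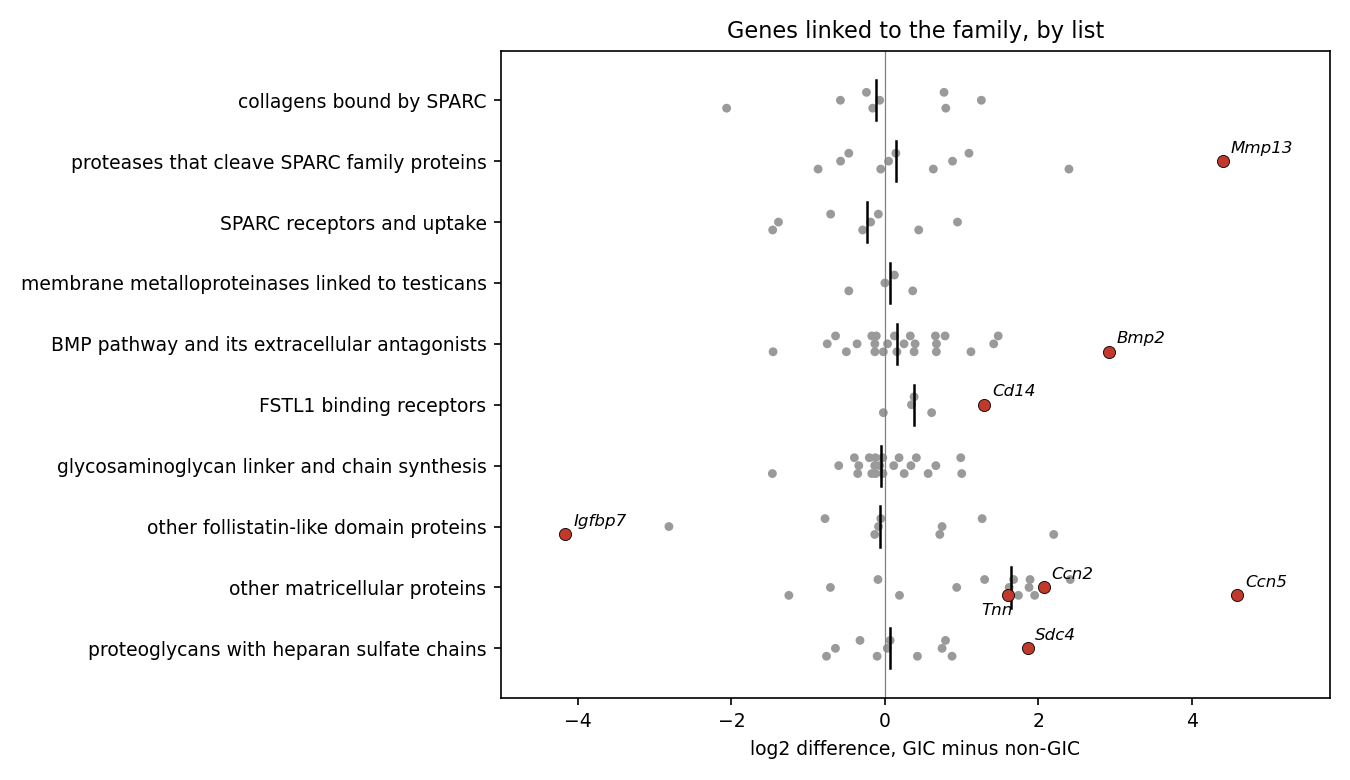
Log2 difference, GIC minus non-GIC (x axis), of each tested gene in the 10 lists of genes linked to the family (rows). Each dot is a gene, red dots are the 8 genes past the threshold, and black bars are list medians. The list of other matricellular proteins has its median at 1.65, whereas the other lists have medians between -0.24 and 0.38.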

How the data were processed

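The deposited table holds a log2 signal per probe set and array; per the labels, RNA was labelled with the One-Cycle procedure. How the authors corrected, summarised and normalized the arrays is not known here; the unit rests on the range of the values, and array quantiles were near equal. Of 45101 probe sets, 34945 had 1 gene in the platform annotation, updated through Entrez identifiers to the GRCm38.p6 gene table (34741 by identifier); 932 with several genes, 9160 unnamed and 64 controls were left out. Each gene was read at its probe set with the highest mean.

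The GIC minus non-GIC difference was fitted by limma 3.58.1 under R 4.3.3 (lmFit on subline alone, trended eBayes, 2 residual and 2.72 prior degrees of freedom), two-sided, with Benjamini-Hochberg adjustment over 13366 genes. An exact permutation test of 2 against 2 arrays cannot go below p = 0.333. No array pair was identical (0 pairs). The labels give no pairing of the replicate numbers, so the numbers were not taken as pairs. Over tested genes, the gap of replicate 1 minus replicate 2 in GIC correlated at -0.32 with that in non-GIC. The main fit does not model this shared deviation, and its cause was not tested. The members, lists and tests were chosen with earlier results of these data known. Named genes were all members, the nearest tested gene on each side of each, the 5 profiles nearest to Smoc2, and in each list every gene past the threshold or else up to 2 with the smallest p. Col1a2 was added because its direction was opposite to that of Col1a1. Alternatives covered pairing, normalization, filter, probe set choice, variance model and leaving out each array. The fit was checked on simulated data. Figures used matplotlib 3.10.9.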

Additional observations from a re-analysis of the deposited data

How the results depend on the processing

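The arrays limit every value: with 2 per group, single arrays decided calls. The count of genes past the threshold was 257, and lay between 12 and 188 with an array left out, that of listed genes was 8 and lay between 0 and 9, and that of members other than Smoc2 was 0 under every alternative run. With an array left out, the Smoc2 log2 difference lay between 4.77 and 6.03, and the other alternatives gave 5.35 to 5.40. The replicate block gave 29 genes and 1 listed gene, Bmp2, and the numbers are not known to pair the arrays. A crossed block, chosen after seeing the data, gave 685 genes and 23 listed genes. Where 1 array was left in a subline, its spread was taken from the other subline.

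Of 704 single-gene values under alternatives, 626 kept direction and side of the threshold, 50 lost the call, 8 gained it and 20 turned sign. Spock2 was -0.0208 with quantile normalization and -0.0037 with median centring. Atox1 was 0.0223 with quantile normalization, Palld 0.0333 with quantile normalization and 0.12 with the mean of probe sets, and Sdc4 -0.12 when probe sets shared by several transcripts were left out. With an array left out, the range was -0.0717 to 0.0481 for Smoc1, -0.35 to 0.17 for Sparc, -0.0671 to 0.0310 for Spock1, -0.0525 to 0.11 for Spock2, -0.0417 to 0.13 for Srsf5, -0.10 to 0.0495 for Atox1, -0.24 to 0.10 for Mepe, -0.22 to 0.10 for Lrrc58, -0.17 to 0.16 for Palld and -0.45 to 1.15 for Tll1. The cause was not tested.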

Other observations

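On non-GIC replicate 2, 3 of 18193 genes stood above every other array by at least the 2.70 of Sparcl1. They were the cyclin gene Ccnd2, at 6.51 and 7.42 in GIC and 8.23 and 12.06 in non-GIC, the corneodesmosin gene Cdsn, at 7.54 and 7.08 in GIC and 7.76 and 10.70 in non-GIC, and Sparcl1 itself. The same gap was reached by 1 gene on GIC replicate 2 and by 0 genes on GIC replicate 1 and on non-GIC replicate 1. These genes were picked after their values were seen and carry no test.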
